A study of Mus musculus with 6 samples.

Results

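The nuclear factor I (NFI) family of transcription factors was followed in neurons sorted from the embryonic mouse cortex. The family has 4 members, Nfia, Nfib, Nfic and Nfix, which were found by gene symbol, so that 4 of the 20367 genes joined across libraries are described here. All 4 were above 0 in each of the 6 libraries and were among the 19561 genes tested. Heterozygous Tbr2(Eomes)-GFP mice had been crossed with homozygous DCX-mRFP mice on the C57BL/6J strain, so that embryos marked cells that use the intermediate progenitor factor Tbr2 in green and young neurons, which make the microtubule protein doublecortin, in red. Cells positive for both colors are called IPN (intermediate progenitor cell-derived neurons), and cells with red color alone are called non-IPN, so both groups carried the same reporters and each was defined by the fluorescence that remained at sorting. Each population gave 1 library at embryonic day (E) 13.5, 15.5 and 16.5. Amplification of the transcriptome was used for the youngest and oldest libraries, which started from 10000 cells per population, while E15.5 had 1000000 cells and none, so amplification and cell number cannot be told apart from age wherever E15.5 is set beside another day. No label ties a library to an animal of its own. A gene's own part in the spread behind each p-value is thus how far its difference between populations varies from age to age. In the limma fits below, most of the spread is borrowed from other genes. Between populations 2 residual degrees of freedom stood against a median prior of 8.26, and for the population by day term 1 against 14.5. A low p-value thus does not measure only how alike the pairs of 1 gene were. A spread between animals of 1 age is not measured.

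NFI proteins bind DNA as dimers, and members can pair with one another. Their full site is a palindrome, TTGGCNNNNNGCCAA, of which each protein contacts a half-site, TTGGC or its reverse complement GCCAA. In the developing mouse forebrain Nfia, Nfib and Nfix are known from radial glia and from young neurons, and mice that lack any of these 3 genes have defects of the cortical midline and delayed differentiation of radial glia. Nfic is best known from tooth root formation.

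The unit of level is CPM, obtained by dividing each deposited value by the total of its column and multiplying by 1000000. These totals ran from 12583677 to 32538995, and because the authors had scaled the values, the true depth is unknown. The 9 projection neuron markers followed (among them Neurod6, Tbr1 and Neurod2) summed to 3716, 5225 and 3841 CPM in IPN, in the order of age, and to 606, 783 and 1919 CPM in non-IPN. The 10 interneuron markers (among them Gad1, Dlx2 and Lhx6) summed to 27.5, 72.6 and 65.0 CPM in IPN and to 1580, 5293 and 2914 CPM in non-IPN. By gene, all 10 interneuron markers were higher in non-IPN at each age. Of the 9 projection neuron markers, 1, 0 and 2 were higher in non-IPN, in the order of age. The sums of these 2 lists separated the populations at each age, with the most projection neuron signal in non-IPN at E16.5. The genes behind the sort did so less clearly. Eomes was at 437, 101.7 and 98.4 CPM in IPN and at 214, 72.5 and 72.0 CPM in non-IPN, above its partner library in each pair without passing the test (limma adjusted p = 0.101). Dcx was at 1392, 2862 and 3270 CPM in IPN and at 855, 4641 and 4448 CPM in non-IPN, and the 5 intermediate progenitor markers summed to 1605, 380 and 828 CPM in IPN and to 1749, 213 and 585 CPM in non-IPN, so both changed order with age. Markers of some other cells had higher sums in non-IPN: 10 microglia and macrophage markers summed to 916, 918 and 465 CPM there, against 5.17, 2.27 and 1.37 in IPN, and 10 radial glia markers summed to 4551, 648 and 1085 CPM, against 1254, 386 and 570 in IPN. All 10 radial glia markers were above their IPN value in non-IPN at E13.5, but only 7 of 10 at either later age, and at E15.5 most of the gap lay in Sox2 (12.7 CPM in IPN and 283 in non-IPN). Red blood cell markers reached 49251 CPM in non-IPN at E13.5 and at most 277 CPM in any other library. The lists for endothelium and pericytes, meninges and oligodendrocyte precursors each summed to at most 8.41 CPM in any library, and their order between populations changed with age. The part of these cells in the NFI differences was not tested, and in bulk samples fewer cells of a type and less RNA per cell cannot be told apart.

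The 2 members that passed the test between populations, Nfib and Nfia, were both higher in IPN, and they were also the 2 members with the highest levels in the amplified libraries. Nfix was above its partner library in IPN at each age without passing, and Nfic went in different directions at different ages. Differences were fitted across all 6 libraries with limma on log2(value + 1), with age as a factor, and p-values were adjusted over all 19561 genes by the method of Benjamini and Hochberg with a threshold of 0.05. Of the 4 members 2 were called, both as higher, where 3.39% of all genes were called in either direction, 0.982% as higher and 2.41% as lower. The median fitted difference of genes with a mean of at least 10 CPM was 0.09.

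**Figure D1:**
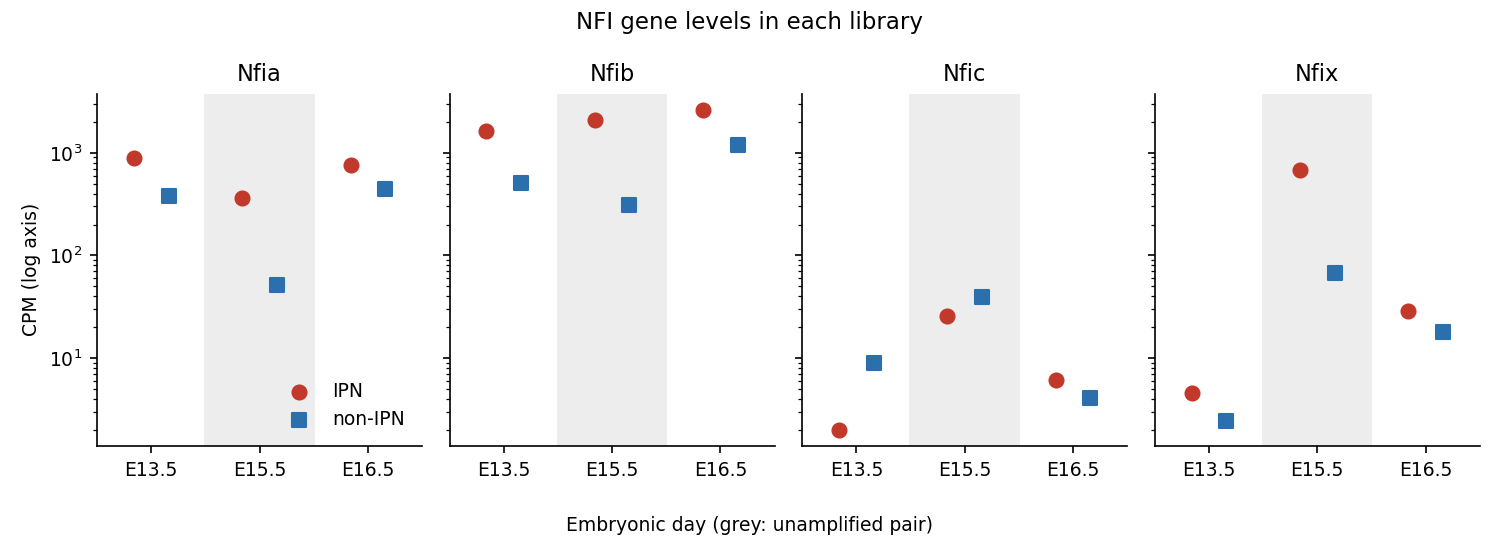
CPM (log axis) of Nfia, Nfib, Nfic and Nfix in IPN (circles) and non-IPN (squares) at each embryonic day, with 1 library per point and the unamplified E15.5 pair on grey. The IPN point lies above the non-IPN point at all 3 ages for Nfia, Nfib and Nfix, and for Nfic only at E16.5 (6.16 and 4.05 CPM).

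Nfib, a factor of deep-layer projection neurons and of radial glia, had the highest level of the family. By age, it was at 1631, 2099 and 2636 CPM in IPN and at 509, 307 and 1192 CPM in non-IPN. The 3 IPN libraries were all above the 3 non-IPN libraries. In IPN at E15.5 Nfib ranked 18 among all 20367 genes, and in non-IPN at that age it ranked 567. The ratio of CPM between the populations was 3.20, 6.84 and 2.21 in the same order. The fitted log2 difference was 2.00 ± 0.26 (SE; limma adjusted p = 0.00202), positive in 3 of 3 pairs. Nfib alone among the members was at least 2-fold higher in IPN at all 3 ages on the log2(value + 1) scale, as were 1.19% of the genes tested. Without the unamplified E15.5 pair the difference was 1.59 and no longer passed (adjusted p = 0.0533).

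Nfia, best known for starting the change of progenitors from making neurons to making glia, was also higher in IPN. It was at 896, 361 and 755 CPM in IPN and at 382, 51.3 and 449 CPM in non-IPN, in the order of age. Within each pair IPN was above non-IPN, but across ages the groups overlapped, since IPN at E15.5 was below non-IPN at E13.5 and E16.5. The ratio of CPM was 2.35, 7.04 and 1.68. The fitted log2 difference was 1.74 ± 0.32 (limma adjusted p = 0.0128), positive in 3 of 3 pairs. This call was lost without the E15.5 pair (1.17, adjusted p = 0.146), with the E13.5 pair left out (1.92, adjusted p = 0.0530) and with a pseudocount of 8 in place of 1 (1.73, adjusted p = 0.0652).

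Nfix, which in the mouse is known to promote differentiation of radial glia and intermediate progenitors, had the largest ratio of any member in a single pair. Nfix was at 4.59, 675 and 28.9 CPM in IPN and at 2.43, 67.0 and 17.96 CPM in non-IPN, so its level in the unamplified pair was far from its level in the amplified pairs on either side in age. The ratio of CPM was 1.89, 10.1 and 1.61, and thus largest in the unamplified pair. The fitted log2 difference was 1.77 ± 0.46 and did not pass (limma adjusted p = 0.0761), although it was positive in 3 of 3 pairs. Without the E15.5 pair it was 0.97 (adjusted p = 0.740).

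Nfic was under 10 CPM in the 4 amplified libraries. It was at 2.00, 25.8 and 6.16 CPM in IPN and at 9.01, 39.0 and 4.05 CPM in non-IPN. The ratio of CPM was 0.222, 0.661 and 1.52, so the populations changed order between E15.5 and E16.5. The deposited values behind the amplified pairs were small: at E13.5 they were 31 for IPN and 126 for non-IPN, and at E16.5 they were 90 for IPN and 51 for non-IPN. The fitted log2 difference was -0.57 ± 0.57 (limma adjusted p = 0.749).

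**Figure D2:**
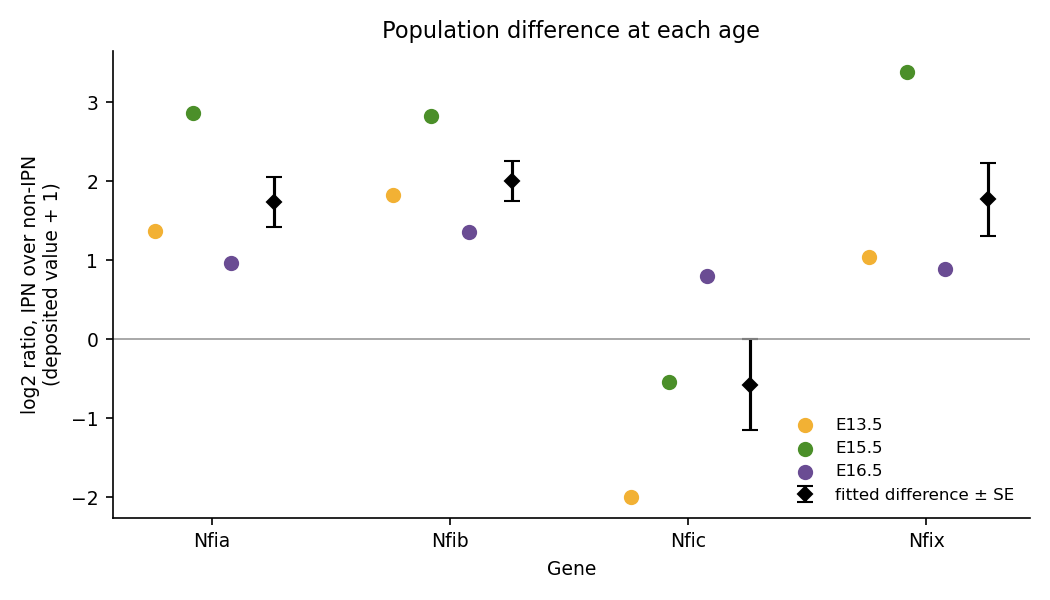
Log2 ratio of IPN over non-IPN (deposited value + 1) for each member and age (colored points, 1 pair of libraries each), with the fitted difference and its standard error (black diamonds). Nfia, Nfib and Nfix are above 0 at all 3 ages, each with its largest ratio at E15.5, while Nfic runs from -1.99 at E13.5 to 0.81 at E16.5.

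Whether the members differed among themselves in the population difference was examined with ratios within a library, which need no scaling. Nfib relative to Nfic differed between IPN and non-IPN by 3.81, 3.37 and 0.55 on the log2 scale from the youngest pair to the oldest, a mean of 2.58 ± 1.77 (SD, n = 3 pairs). Nfia relative to Nfic differed by a mean of 2.31 ± 1.86, and Nfic relative to Nfix by -2.35 ± 2.01. Each of these 3 kept its sign at all ages (two-sided exact permutation within ages, p = 0.25, which is the smallest p that 3 pairs can give). Nfia relative to Nfib differed by -0.27 ± 0.27, Nfia relative to Nfix by -0.04 ± 0.44 and Nfib relative to Nfix by 0.23 ± 0.70, with exact p of 0.5, 1 and 0.75. After adjustment over the 6 pairs, p ran from 0.5 to 1, so 3 pairs of libraries can neither separate these members nor show that they act alike.

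Compared per length, Nfib was the most abundant member in every library. On the scale of CPM per kb of the longest coding transcript, Nfib was at 179, 230.2 and 289 in IPN and at 55.8, 33.7 and 131 in non-IPN. Nfia was at 94.0, 37.9 and 79.3 in IPN and at 40.1, 5.38 and 47.1 in non-IPN, which put it in second place in the 4 amplified libraries. In the unamplified pair Nfix took second place, at 123 in IPN and 12.2 in non-IPN. Nfic was last in all 3 IPN libraries (0.321, 4.13 and 0.987) and in non-IPN at E16.5 (0.650, with Nfix at 3.28). In non-IPN at E15.5 Nfic and Nfia were close, at 6.25 and 5.38 CPM per kb of transcript, and their order turned round per kb of coding sequence (30.4 and 33.6). In non-IPN at E13.5 Nfic was at 1.44 and Nfix at 0.444.

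The summed family level was 2533, 3160 and 3426 CPM in IPN and 902, 464 and 1662 CPM in non-IPN. Nfib made up 64.4%, 66.4% and 76.9% of that sum in IPN, and 56.4%, 66.1% and 71.7% in non-IPN. Nfia made up 35.4%, 11.4% and 22.0% in IPN and 42.3%, 11.04% and 27.0% in non-IPN, so its share at any age was nearer between the populations than either population's share was between ages. At E15.5 Nfix had a share of 21.4% of the sum for IPN and 14.4% for non-IPN, and at most 1.08% in any amplified library.

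Because Nfix and Nfic were so much lower in the amplified libraries, the unamplified and amplified libraries were set side by side over all genes. The 4 members fell into 2 classes by base composition of the longest coding transcript: the GC content was 42.7% for Nfia and 43.3% for Nfib, and 57.4% for Nfic and 57.1% for Nfix. The mean log2(CPM + 1) of the E15.5 pair minus that of the 4 amplified libraries was -2.09 for Nfia, -0.66 for Nfib, 2.51 for Nfic and 4.39 for Nfix, against a median of 0.37 over 9255 genes with a mean of at least 10 CPM. Across these genes the same quantity went with GC content (Spearman rho = 0.621, across genes that share the same 6 libraries), and with transcript length to a smaller degree (rho = 0.190). In the tenth of genes with a GC content like that of Nfia and Nfib (41.5% to 43.8%) its median was -0.47, with a lowest decile of -1.70 and a highest of 0.77. In the tenth that held Nfic and Nfix (55.4% to 57.8%) the median was 1.74, with a lowest decile of -0.01 and a highest of 3.42.

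Nfib and Nfic thus lay between these deciles of genes of like GC content, Nfia lay below them and Nfix above them. Of the 9255 genes, 143 (1.55%) had a larger value than Nfix. Age, amplification and cell number changed together between these libraries, so their parts in the Nfix and Nfic levels cannot be told apart. The median log2 ratio of IPN over non-IPN also moved with GC content, though over a narrower range: between the lowest and the highest of 10 classes it went from -0.003 to 0.31 at E13.5, from -0.13 to 0.09 at E15.5 and from 0.20 to -0.04 at E16.5. In the class of Nfix it was 0.22, 0.09 and -0.02 by age, and for Nfix itself the log2 ratio was 1.04, 3.39 and 0.90. The part of GC content in the Nfix ratio was not tested.

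**Figure D3:**
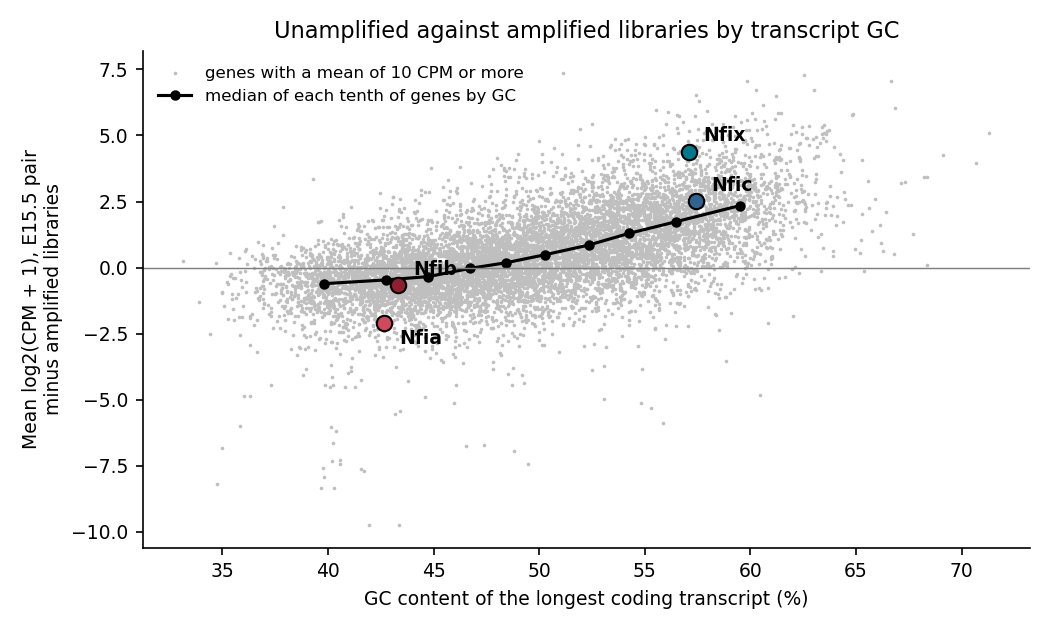
Mean log2(CPM + 1) of the unamplified E15.5 pair minus that of the 4 amplified libraries (vertical axis) against GC content of the longest coding transcript (horizontal axis, %), for 9255 genes (grey) with the median of each of 10 equal classes by GC (black line) and the 4 NFI genes (labelled). The medians run from -0.61 to 2.35, and Nfix at 4.39 lies well above the median of 1.74 of its class.

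Both libraries of an age came from the same dissociated cortices. What such a pair shares in preparation cannot be told apart from its age, and the p-values between ages do not cover it. Between E13.5 and E16.5, both amplified, Nfix was the only member that passed the test. It was at 28.9 CPM at E16.5 and 4.59 at E13.5 in IPN, a ratio of 6.29, and at 17.96 and 2.43 CPM in non-IPN, a ratio of 7.39. Both E16.5 libraries were above both E13.5 libraries, and the fitted log2 difference of E16.5 minus E13.5 was 2.63 ± 0.57 (limma adjusted p = 0.0256). Of the 4 members 1 was thus called, as higher at E16.5, where 6.02% of all genes were called in either direction and 3.76% as higher. In the tenth of genes with the GC content of Nfix the same difference had a median of 0.01 for IPN and 0.33 for non-IPN. The call was lost without the E15.5 pair (limma adjusted p = 0.106). Leaving out 1 amplified library gave differences of 1.97 to 3.28. It leaves 1 library at its age, so such fits cannot show whether the call holds.

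The other 3 members did not pass between these ages. Nfib was at 2636 CPM at E16.5 and 1631 at E13.5 in IPN, and at 1192 and 509 CPM in non-IPN (0.84 ± 0.32, limma adjusted p = 0.152). Both E16.5 values were above the E13.5 value of the same population. Nfia was at 755 and 896 CPM in IPN and at 449 and 382 CPM in non-IPN (-0.12 ± 0.39, limma adjusted p = 0.883). Nfic was at 6.16 and 2.00 CPM in IPN and at 4.05 and 9.01 CPM in non-IPN (0.11 ± 0.70, limma adjusted p = 0.957).

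Whether the population difference changed per embryonic day was fitted as a population by day term, with 1 residual degree of freedom. Of the 4 members 0 were called by limma, while 1.30% of all genes were called. At an unadjusted p under 0.05, 1 member (Nfic) passed, as did 3263 of the 19561 genes tested. The term was 0.90 ± 0.31 log2 units per day for Nfic (limma adjusted p = 0.148), 0.13 ± 0.48 for Nfix, -0.01 ± 0.31 for Nfia and -0.06 ± 0.22 for Nfib. For the last 3 genes the ratio was largest at the middle age, and a term linear in the day does not describe such an order.

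Genes with the pattern most like that of each member were found by the smallest root mean square difference of centered log2(CPM + 1) over the 6 libraries, among genes with a mean of at least 10 CPM. For Nfib these were Me1 (malic enzyme), Znrf2 (a ubiquitin ligase) and Aff3, at differences of 0.222, 0.271 and 0.277 log2 units. For Nfia they were 3110003A17Rik, Insm1 (a zinc finger factor of newborn neurons) and Tle4 (a corepressor of deep-layer neurons), at 0.376, 0.413 and 0.452. For Nfic they were Pla2g15 (a lysosomal phospholipase), Mob1a (a Hippo pathway protein) and Arhgap23, at 0.230, 0.232 and 0.244. For Nfix they were Ntng2 (netrin-G2), Wwc1 (KIBRA) and Mdga1 (an adhesion molecule), at 0.351, 0.371 and 0.422. At E15.5 Ntng2 had a level of 105 CPM for IPN and 14.0 CPM for non-IPN, and at most 4.31 CPM in any amplified library, so that, like Nfix, it was highest in the unamplified pair.

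The genes that NFI factors are known to act on, or that are discussed with them, were followed in 3 lists of 19 genes in all, every one of them measured. The link is well known for most, while that of Ephb1, Bbx and S100b is less certain. Ephb1 may have been listed in place of Efnb1, so its counts may not concern a gene linked with NFI factors. Whether NFI factors act on any of the listed genes in these cells was not tested. Between populations 3 of the 19 were higher in IPN and 1 was lower, where 0.982% of all genes were called as higher and 2.41% as lower.

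**Figure D4:**
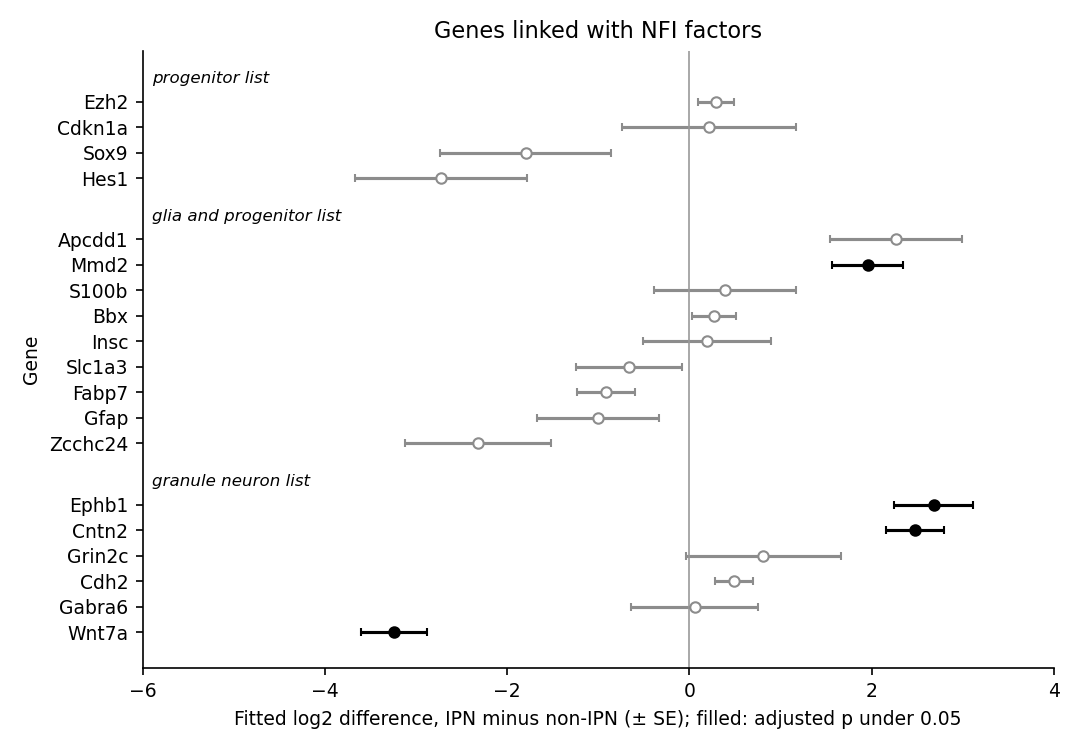
Fitted log2 difference of IPN minus non-IPN with its standard error for 19 genes linked with NFI factors, in 3 lists (filled points passed limma at an adjusted p under 0.05). Ephb1, Cntn2 and Mmd2 lie to the right at 2.68, 2.48 and 1.96, Wnt7a lies to the left at -3.24, and 15 genes are open points.

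In the granule neuron list of 6 genes, 2 were higher and 1 lower, with a median of 0.65, against -0.02 over all genes tested. The 4 genes of the list with a mean of at least 10 CPM had a median of 1.485, against 0.09 over all such genes. Cntn2 (TAG-1, an axonal adhesion molecule), which NFI proteins activate in mouse cerebellar granule neurons, was at 103, 3102 and 332 CPM in IPN and at 18.6, 306 and 142 CPM in non-IPN. IPN was above non-IPN in each pair, and the difference was 2.48 ± 0.32 (limma adjusted p = 0.00201). Ephb1, a receptor for ephrin-B, was at 30.9, 84.9 and 85.5 CPM in IPN and at 3.79, 7.30 and 40.1 CPM in non-IPN (2.68 ± 0.43, limma adjusted p = 0.00679). Wnt7a, a secreted Wnt ligand, went the other way: it was at 2.52, 14.9 and 3.01 CPM in IPN and at 25.5, 155 and 33.8 CPM in non-IPN, each IPN library below all 3 non-IPN libraries (-3.24 ± 0.36, limma adjusted p = 0.00101). Cdh2 (N-cadherin) had a difference of 0.49 ± 0.21 and did not pass, and the receptor subunits Gabra6 and Grin2c were below 0.4 CPM in all libraries. Without the E15.5 pair 0 genes of the list were called by limma, where 54 of 19309 genes were called.

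In the list of 9 genes from glia and progenitors, 1 was higher and 0 were lower, with a median of 0.19. That median is the value of Insc, which was at most 0.246 CPM in any library. The 5 genes of the list with a mean of at least 10 CPM had a median of 0.27. Mmd2, which NFIA activates with SOX9 in the chick spinal cord, was at 32.8, 98.6 and 33.5 CPM in IPN and at 15.9, 12.1 and 12.6 CPM in non-IPN. All 3 IPN libraries were above the 3 non-IPN libraries, and the difference was 1.96 ± 0.39 (limma adjusted p = 0.0208). With a pseudocount of 8, without the E15.5 pair, without the age term or with limma's trend and robust options off, 0 of the 9 genes were called. Over all genes, 364 were called with that pseudocount, 54 without that pair and 0 under either of the last 2 settings. Apcdd1, a Wnt inhibitor from the same chick study system, was at 5.95, 114 and 1.51 CPM in IPN and at 0.50, 14.2 and 1.51 CPM in non-IPN (2.27 ± 0.72, limma adjusted p = 0.160). Zcchc24, a zinc finger gene, went the other way, at 0.259, 2.09 and 0.479 CPM in IPN and at 5.005, 6.44 and 1.83 CPM in non-IPN (-2.32 ± 0.80, limma adjusted p = 0.204). Fabp7, a fatty acid binding protein that is also in the radial glia marker list, was at 338, 47.9 and 272 CPM in IPN and at 1458, 49.6 and 541 CPM in non-IPN (-0.91 ± 0.32, limma adjusted p = 0.210). Gfap, the classical astrocyte target of NFI factors, was at most 0.214 CPM in any library and at 0 in IPN at E13.5 and E16.5.

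In the list of 4 genes listed as repressed by NFI factors in progenitors, 0 were called between populations by limma. The median was -0.79, the midpoint of Sox9 and the low gene Cdkn1a. The 2 genes with a mean of at least 10 CPM had a median of -0.75. Hes1, a Notch effector repressed by NFIA, was at 0.776, 1.26 and 0.752 CPM in IPN and at 50.6, 3.03 and 2.15 CPM in non-IPN (-2.73 ± 0.95, limma adjusted p = 0.207). Sox9, a factor of radial glia and glia, was at 6.98, 8.48 and 21.2 CPM in IPN and at 233, 15.0 and 20.3 CPM in non-IPN (-1.80 ± 0.94, limma adjusted p = 0.505). Both genes were highest in non-IPN at E13.5, the library with the highest sum of radial glia markers, a list that holds both of them. Ezh2, a histone methyltransferase repressed by NFIB, was at 399, 160 and 203 CPM in IPN and at 339, 152 and 182 CPM in non-IPN, a difference of 0.30 ± 0.20 that did not pass (limma adjusted p = 0.598). Cdkn1a was at 1.03, 2.92 and 0.205 CPM in IPN and at 0.143, 4.91 and 0.636 CPM in non-IPN (0.21 ± 0.95, limma adjusted p = 0.943).

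Between E13.5 and E16.5, Ezh2 fell by 1.05 ± 0.24 on the log2 scale (limma adjusted p = 0.0330), and Cntn2 and Ephb1 rose by 2.20 ± 0.39 and 2.31 ± 0.53 (adjusted p = 0.0119 and 0.0318). These were 1 of the 4 genes listed as repressed in progenitors and 2 of the 6 genes in the granule neuron list, where the place of Ephb1 is uncertain. Of the 9 genes from glia and progenitors 0 were called in that comparison by limma. Over all genes 3.76% were called as higher and 2.26% as lower. Without the E15.5 pair 0 of the 19 genes were called between these ages, where 97 of 19309 genes were called. Leaving out 1 amplified library leaves 1 library at its age, so such fits cannot show whether these calls hold. As for Nfix, what the libraries of an age share in preparation cannot be told apart from age. The population by day term was positive for Sox9 (1.77 ± 0.22 per day, limma adjusted p = 0.00141) and Slc1a3, a glutamate transporter of radial glia (1.12 ± 0.22 per day, limma adjusted p = 0.0343), where 0.624% of all genes were called as positive. The call of Slc1a3 was lost with a pseudocount of 8, among genes with a mean of at least 10 CPM and with the limma options off, and that of Sox9 with the limma options off. Sox9 was at 233 CPM in non-IPN at E13.5 and at most 20.3 CPM in non-IPN later. Both genes are in the radial glia marker list, whose sum was highest in the same library, and its part in this term was not tested.

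Promoter windows from RefSeq (GRCm38.p6, 250 bases before to 50 after an annotated start) were searched for the NFI half-site on both strands, TTGGC or GCCAA, and for the full site given above. A half-site was in 46.7% of all 32851 windows and a full site in 0.0365%. Of the members, 3 matched the table, with 6 windows: 4 of Nfix and 1 each of Nfia and Nfic. Nfib had no window and was not searched. Half-sites were in 3 of these windows, all of Nfix. Of the 19 linked genes 14 matched, with 15 windows, of which 9 held a half-site and 0 a full site. These are matches of letters, not shown to be bound.

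Of these windows, 3 are shown: that of Nfia, which was called between populations, that of Cntn2, a linked gene called between populations and between ages, and 1 of those of Nfix, the member called between ages. Of the 3 members with a window, Nfix alone had half-sites, and it also had the most windows. The Nfix window shown is the one of its windows with the most half-sites, a pair on either side of its annotated start, facing away from each other. The other Nfix windows have 1 or 0. The Cntn2 window has 2 half-sites further apart, and the Nfia window has none. Capitals mark the half-sites, and all 3 are written in the direction of transcription.
Nfix, minus strand, chr8:84772826-84773125: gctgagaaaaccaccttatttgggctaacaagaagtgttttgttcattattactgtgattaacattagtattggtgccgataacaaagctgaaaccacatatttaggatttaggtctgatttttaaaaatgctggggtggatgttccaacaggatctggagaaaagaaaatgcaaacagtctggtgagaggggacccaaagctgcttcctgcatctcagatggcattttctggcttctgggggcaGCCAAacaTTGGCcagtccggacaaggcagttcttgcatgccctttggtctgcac
Cntn2, minus strand, chr1:132542891-132543190: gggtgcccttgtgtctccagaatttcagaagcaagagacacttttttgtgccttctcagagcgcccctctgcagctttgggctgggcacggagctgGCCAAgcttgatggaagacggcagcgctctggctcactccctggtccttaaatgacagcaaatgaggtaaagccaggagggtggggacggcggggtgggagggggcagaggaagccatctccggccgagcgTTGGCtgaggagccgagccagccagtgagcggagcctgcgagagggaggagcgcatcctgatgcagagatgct
Nfia, plus strand, chr4:97581693-97581992: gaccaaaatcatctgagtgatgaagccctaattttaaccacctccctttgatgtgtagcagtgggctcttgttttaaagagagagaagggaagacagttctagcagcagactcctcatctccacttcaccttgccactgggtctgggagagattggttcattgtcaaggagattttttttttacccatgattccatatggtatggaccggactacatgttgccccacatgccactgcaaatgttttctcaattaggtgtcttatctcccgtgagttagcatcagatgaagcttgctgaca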

How the data were processed

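RNA sequencing of 6 sorted libraries was used, 1 per population and age. The tools that the submitters' processing notes name are edgeR, SAMtools 0.1.18, TopHat 1.2.0 and CASAVA 1.9, with mouse build mm9. What each was used for, and which counter, annotation and scaling the authors chose, is not given in the sources used here. The deposited values are whole numbers and were treated as a signal scaled by the authors, not as raw counts, since their upper quartiles nearly matched within a protocol (1502 and 1501 without amplification, 438 to 444 with it) where totals did not. Depth is therefore unknown and no counting interval is given.

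Files were joined by symbol, 6 rows of 3 repeated symbols were dropped, and 19561 genes above 0 in at least 1 library were tested with limma 3.58.1 (trend and robust) in R 4.3.3 on log2(value + 1), which understates changes of low genes. Age entered as a factor that pairs the populations, with 2 residual degrees of freedom and a median prior of 8.26. The scripts were tested on simulated data. Transcript lengths and GC content came from GENCODE M21 (GRCm38), matched by symbol, for 99.0% of genes with a mean of at least 10 CPM; the authors' gene models may differ. A planned comparison of the members' proteins was not run. The linked genes were the fixed lists, all named where called, and the 3 genes most alike each member were named by rule. The members and lists were chosen with earlier results of these data known. A listed projection neuron marker is not reported here and was left out of the marker sum.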

Additional observations from a re-analysis of the deposited data

Results flagged for a closer look

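For 2 members the change between E13.5 and E16.5 had opposite signs in the 2 populations. Over all genes tested the median change was 0 in each population. The share of genes with opposite signs was not counted, so 2 of 4 members is not shown to be unusual. With 1 library per population and age, the difference between the populations in this change was not tested on its own. Nfic changed by 1.51 on the log2(value + 1) scale in IPN and by -1.29 in non-IPN, from deposited values of at most 126, and its population by day term of 0.90 per day did not pass (limma adjusted p = 0.148). Nfia changed by -0.33 in IPN and by 0.080 in non-IPN, and its population by day term of -0.01 did not pass either (limma adjusted p = 0.996).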

How the results depend on the processing

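Nfib and Nfia kept a positive IPN minus non-IPN difference under all alternatives run. With limma's trend and robust options off, adjusted p was 0.286 for Nfib and 0.408 for Nfia (differences 2.00 and 1.74), and without the age term, which acts as the block that pairs the populations, 0.377 and 0.896 (same differences). Nfia was at 1.73 with a pseudocount of 8. Leaving out 1 age pair gave 1.59 to 2.33 for Nfib, 1.17 to 2.12 for Nfia, 0.97 to 2.21 for Nfix and -1.27 to 0.13 for Nfic, whose sign turned without the E13.5 pair. Genes called between populations numbered 664, against 364 with a pseudocount of 8, 358 with a mean of at least 10 CPM, 54 to 595 with 1 pair left out, and 0 with those limma options off (1946 at an unadjusted p under 0.05) or without the age term (676).

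Between E16.5 and E13.5, Nfix was at 2.46 (adjusted p = 0.0895) with a pseudocount of 8, at 2.63 (0.256) with the limma options off and at 2.63 (0.106) without the E15.5 pair. Leaving out 1 amplified library gave 1.97 to 3.28 for Nfix, -0.70 to 0.45 for Nfia and -0.95 to 1.17 for Nfic; Nfia turned positive without non-IPN E13.5 (0.15) or IPN E16.5 (0.45), and Nfic negative without IPN E13.5 (-0.95) or IPN E16.5 (-0.93). The 1178 genes called became 529 with a pseudocount of 8, 97 without the E15.5 pair and 0 with the limma options off (3414 unadjusted). Fits without 1 amplified library leave 1 library at its age and cannot show whether calls hold.

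For the population by day term the 255 calls became 19 with a pseudocount of 8, 135 with a mean of at least 10 CPM, 1445 with equal column totals, 1558 with median-of-ratios scaling and 0 with the limma options off (2321 unadjusted), and Nfia was at 0.0046 under median-of-ratios scaling. Leaving out libraries was not run for this term, since no residual degree of freedom would remain. The Nfia to Nfix ratio turned to 0.011 with a pseudocount of 8 and ranged from -0.22 to 0.20 with 1 pair left out (0.20 without E15.5), and Nfib to Nfix ranged from -0.048 (without E13.5) to 0.62. The causes were not tested. Depth is unknown, so what it limits could not be given.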
